A study of Homo sapiens with 6 samples.

Results

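The hepatic acute phase genes CRP, SAA1, SAA2, SAA4, HP, HPX, LBP, ORM1, ORM2 and CP were examined in RNA-seq counts from Huh7 cells, a line long established from a human hepatocellular carcinoma. They were taken by name from the deposited count table, and all 10 were found among its 79172 genes. Control Huh7 cells (3 libraries) were compared with Huh7 cells that overexpressed HK1, the gene of hexokinase 1, which phosphorylates glucose (3 libraries). How HK1 was introduced, what the control cells carried, whether the overexpressing cells were 1 clone, and when cells were collected are not given in the sources used here. Nothing in the labels ties replicates to separate cultures, so p-values measure only the spread between these libraries, which may be technical.

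Acute phase proteins are plasma proteins, made largely by hepatocytes, whose output shifts during infection or injury. Interleukin 6, acting through gp130, JAK kinases and STAT3, and interleukin 1, acting through NF-kB and C/EBP factors, are the classical inducers, and glucocorticoids add to their action. Positive acute phase proteins, among them most of those studied here, increase in that response, whereas albumin, transferrin and other negative ones decrease.

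Several of these genes have close copies, which bears on how far a count belongs to a gene. Pairs of coding sequences were aligned from GENCODE release 29 transcripts. ORM1 and ORM2, the neighbouring genes of the orosomucoids (alpha-1-acid glycoproteins, which carry basic and neutral drugs and lipids in plasma), were identical at 575 of 606 coding bases (94.9%), with 1 identical run of 206 bases. The 60-base stretch below is where they differed most. Bases are counted from the first coding base, the stretch runs from 338 to 397, and capitals mark the 14 bases that differ.
ORM1: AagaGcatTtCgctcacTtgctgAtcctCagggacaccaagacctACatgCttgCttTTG
ORM2: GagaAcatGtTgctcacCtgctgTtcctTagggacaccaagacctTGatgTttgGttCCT
A fragment that covers such a stretch can be assigned to its gene. Of the 100-base windows of the ORM1 transcript, 33.7% also occurred in ORM2, and 35.9% of the ORM2 windows occurred in ORM1.

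SAA1 and SAA2, the inducible serum amyloid A genes, whose proteins travel on high-density lipoprotein, were closer still, at 358 of 369 coding bases (97%). The stretch from 229 to 288 held 8 differing bases, shown in capitals.
SAA1: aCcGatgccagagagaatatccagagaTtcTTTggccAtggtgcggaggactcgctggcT
SAA2: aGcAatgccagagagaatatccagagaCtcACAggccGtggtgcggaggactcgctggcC
For SAA1 37.2% and for SAA2 45.2% of 100-base windows were shared with another gene. SAA4, the constitutive serum amyloid A gene, was 73.7% identical to SAA1 in coding sequence but shared 60.5% of its windows with SAA2-SAA4, an annotated readthrough gene. HP (haptoglobin, which binds free haemoglobin) shared 16.1% of its windows with its neighbour HPR, the haptoglobin-related gene. No window of CRP, HPX or LBP was shared.

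The deposited coordinates, on hg38, place ORM1 at chr9:114323098-114326479 and ORM2 at chr9:114329869-114333251, both on the plus strand. CP lies at chr3:149162410-149221829 on the minus strand, and 20.1% of its exon bases (1420 of 7072) overlap exons of HPS3 on the opposite strand. HPX lies at chr11:6431049-6442617 on the minus strand and HP at chr16:72054505-72061055 on the plus strand. Exons of ORM1, ORM2, HP, HPX, LBP and CRP overlap no other annotated gene. SAA4 shares 75.6% of its exon bases with other genes, SAA1 26.7% and SAA2 14.2%, and SAA1 also has exons on 1 alternate sequence of the assembly. Under the recorded counting options such fragments can be lost, so low counts of these 3 genes do not measure low expression alone.

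RefSeq promoter sequences (GRCh38.p14, 250 bases before and 50 from the start site on) were matched for 4 of the 10 genes, and those of ORM1 and HPX are shown because both genes were lower with HK1. Capitals mark matches to the C/EBP motif TTNNGNAA and, in HPX, to CTGGGAA, a short STAT3 element, on either strand. The first is ORM1, chr9:114322848-114323147, plus strand, and the second HPX, chr11:6440938-6441237, minus strand, both read along the gene.
ORM1: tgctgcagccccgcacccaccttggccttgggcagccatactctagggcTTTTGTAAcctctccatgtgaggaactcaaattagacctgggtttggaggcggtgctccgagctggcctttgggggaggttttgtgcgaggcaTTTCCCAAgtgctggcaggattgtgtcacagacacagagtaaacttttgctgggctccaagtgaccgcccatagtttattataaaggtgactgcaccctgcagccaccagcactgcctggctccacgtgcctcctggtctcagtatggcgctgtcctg
HPX: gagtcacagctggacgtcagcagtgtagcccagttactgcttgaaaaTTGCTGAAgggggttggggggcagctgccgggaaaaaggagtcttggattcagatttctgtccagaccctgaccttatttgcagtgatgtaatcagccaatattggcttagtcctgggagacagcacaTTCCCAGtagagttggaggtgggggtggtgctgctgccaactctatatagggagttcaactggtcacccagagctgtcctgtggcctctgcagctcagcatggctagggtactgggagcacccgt
ORM1 held 2 C/EBP matches, starting 201 and 108 bases before the start site, and HPX held 1, 203 bases before it, with CTGGGAA 75 bases before it. The HPX window lies within the deposited extent of HPX, which reaches chr11:6442617. Its distances therefore hold for the RefSeq start site only. The CRP window held 2 and the SAA4 window 6 C/EBP matches. Of all 35116 promoters of this length, 36.8% held TTNNGNAA and 10.8% held CTGGGAA. None of the 4 windows held TTCNNNGAA, found in 7.66% of promoters, or the HNF1 motif GTTAATNAT, found in 0.792%. A match is a run of letters and does not show binding.

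HK1 itself had 13, 15 and 13 counts in controls 1 to 3 and 9723, 10602 and 11101 in HK1-overexpressing libraries 1 to 3, which fits the labels. Library totals ran from 16771835 to 20823072 counts. Levels below are CPM (counts scaled to a common library size, the library total times its TMM factor). Of 16734 genes with enough counts, edgeR's quasi-likelihood test with Benjamini-Hochberg adjustment at 0.05 called 648 higher and 694 lower with HK1 overexpression. With library totals alone as the scale it called 898 higher and 463 lower, and the median log2 change moved from 0.01 to 0.04.

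Orosomucoid, ceruloplasmin and hemopexin transcripts were lower in the HK1-overexpressing cells. Among them mean ORM1 fell by 21.4%, ORM2 fell by 25.8%, HPX fell by 31.5% and CP fell by 36.2%. Of the 10 genes, 5 had enough counts for the test (ORM1, ORM2, CP, HPX and HP), and 4 of these were called lower, where 4.15% of all tested genes were. None was called higher by edgeR, where 3.87% of all tested genes were, and at that share 0 of 5 says little. DESeq2 and limma-voom called none higher either. At an unadjusted p under 0.05 0 were higher, and the share over all genes at that threshold is not given here. In the 4 called genes every HK1-overexpressing library lay below every control library, a separation that 13.9% of tested genes showed downward and 14.0% upward. None of the 5 passed edgeR's test against a fold of 1.5 after adjustment, where 0.287% of all tested genes did, and none did so unadjusted. The median log2 change of the 5 was -0.54, against 0.01 for all tested genes. In bulk RNA, fewer cells making a transcript and less of it per cell cannot be told apart.

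ORM1 was the most abundant of the 10 genes per kilobase of exon. It measured 53.0, 62.1 and 62.1 CPM in controls 1 to 3 and 46.3, 47.1 and 45.9 CPM in HK1-overexpressing libraries 1 to 3. Control 1 was the lowest control, and the groups did not overlap. The mean went from 59.1 ± 5.25 to 46.4 ± 0.637 CPM (mean ± SD, n = 3 each), and the log2 fold change was -0.35 (SE 0.0693, edgeR adjusted p = 0.006615). The call was lost without control replicate 3 (log2 -0.31, edgeR adjusted p = 0.05, which does not pass the threshold) and without HK1 replicate 1 (-0.34, 0.05058).

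ORM2 measured 23.2, 27.8 and 26.2 CPM in controls 1 to 3 and 20.0, 17.7 and 19.7 CPM in HK1-overexpressing libraries 1 to 3. Its groups also did not overlap, and control 1 was again the lowest control. The mean went from 25.7 ± 2.32 to 19.1 ± 1.26 CPM (mean ± SD, n = 3 each), and the log2 fold change was -0.43 (SE 0.0852, edgeR adjusted p = 0.006461). Without HK1 replicate 2 the call was lost (log2 -0.37, edgeR adjusted p = 0.05828).

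Summing ORM1 and ORM2 removes the split of fragments between them, though not fragments lost to both. The sum went from 84.8 ± 7.46 to 65.5 ± 0.710 CPM, a log2 fold change of -0.37 (SE 0.0658, edgeR adjusted p = 0.002835), in a fit where 4.14% of genes were called lower. This call held in all 15 alternatives that were run, with log2 fold changes of -0.44 to -0.32. ORM2 made up 30.3% ± 0.658 of the pair's counts in controls and 29.1% ± 1.64 with HK1. The shares of the 2 groups overlapped (two-sided exact permutation p = 0.4), but 3 against 3 allows no p below 0.1, so this test could not have passed 0.05.

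CP encodes ceruloplasmin, the copper-carrying ferroxidase of plasma. It measured 48.9, 41.9 and 47.5 CPM in controls 1 to 3 and 28.1, 29.7 and 30.5 CPM in HK1-overexpressing libraries 1 to 3. The groups lay far apart, and here control 1 was the highest control. The mean went from 46.1 ± 3.71 to 29.4 ± 1.20 CPM (mean ± SD, n = 3 each), and the log2 fold change was -0.65 (SE 0.0726, edgeR adjusted p = 7.178e-05). It was called in all 15 alternatives (log2 -0.71 to -0.60). Its change was the largest of the 5 tested genes in the fit with all libraries, but without control replicate 1 those of HP (log2 -0.77) and HPX (-0.62) were larger than that of CP (-0.60).

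HPS3, the gene overlapping CP on the opposite strand, was looked at after its position was seen. It went from 50.7 ± 6.22 to 54.7 ± 2.65 CPM and was not called (log2 0.11, edgeR adjusted p = 0.49). HEPH, the membrane-bound ferroxidase related to ceruloplasmin, measured 5.02 ± 0.299 CPM in controls and 6.73 ± 1.17 CPM with HK1. Its groups did not overlap but it was not called (log2 0.42, edgeR adjusted p = 0.08073), except with no filter (adjusted p = 0.04087) and without HK1 replicate 2 (0.03768).

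HPX encodes hemopexin, which binds free haem and delivers it to the liver. It measured 17.9, 22.9 and 19.6 CPM in controls 1 to 3 and 13.1, 13.7 and 14.6 CPM in HK1-overexpressing libraries 1 to 3. Every control library was above every HK1-overexpressing library. The mean went from 20.1 ± 2.53 to 13.8 ± 0.753 CPM (mean ± SD, n = 3 each), and the log2 fold change was -0.54 (SE 0.0964, edgeR adjusted p = 0.002861). The call held in all 15 alternatives (log2 -0.62 to -0.44).

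HP was low and was not called. It had 57, 76 and 74 counts in controls 1 to 3 and 54, 46 and 61 in HK1-overexpressing libraries 1 to 3. In CPM these were 2.87, 4.46 and 4.49 against 2.72, 2.21 and 2.89, so that control 1 lay within the HK1 range and the groups overlapped. The mean was 3.94 ± 0.929 CPM in controls and 2.61 ± 0.352 CPM with HK1, a log2 fold change of -0.58 (SE 0.195, edgeR adjusted p = 0.08454). Without control replicate 1 it was called (log2 -0.77, adjusted p = 0.005832), and with no filter on low counts it was also called (-0.57, 0.04689).

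HPR had 16, 26 and 12 counts in controls and 20, 19 and 7 with HK1, with overlapping groups (log2 -0.44, edgeR adjusted p = 0.5804). HP and HPR summed gave 4.96 ± 1.18 and 3.36 ± 0.324 CPM and were not called (log2 -0.55, edgeR adjusted p = 0.07163). Like HP, the sum was called without control replicate 1 (log2 -0.73, edgeR adjusted p = 0.003464).

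**Figure D1:**
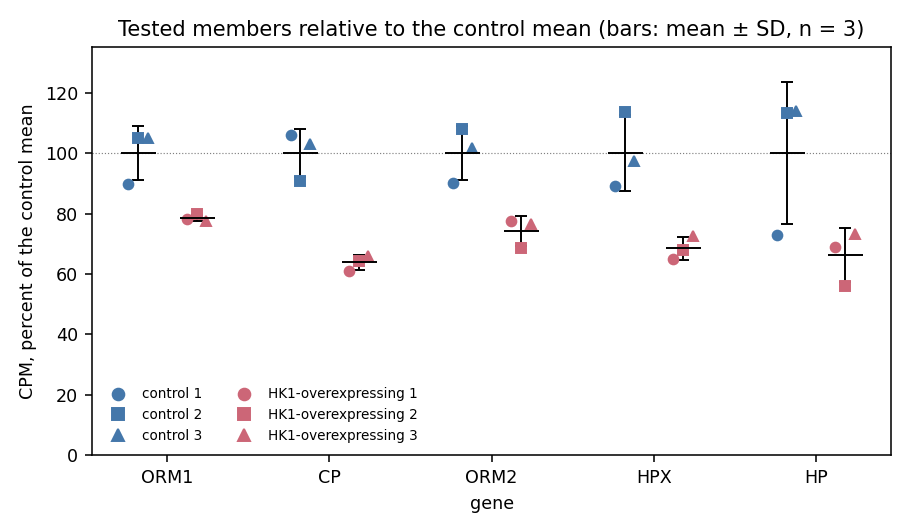
CPM of the 5 tested genes in each library, as a percent of the gene's control mean (points: libraries; bars: mean ± SD, n = 3 per group). The HK1-overexpressing points of CP, HPX, ORM1 and ORM2 lie below all control points, and only in HP does a control library, control 1, fall among them.

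The 4 called genes spread less between libraries with HK1 than in controls. Coefficients of variation were 8.04% to 12.6% in controls and 1.37% to 6.61% with HK1. Over all genes, control libraries also differed more from each other than HK1-overexpressing ones did, at 4.54 to 9.94 against 1.51 to 2.12 chi-square units per degree of freedom, so all libraries differed beyond sampling noise. The part of this unequal spread in the results was not tested.

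The fall of one called gene relative to another was tested for all 6 pairs among CP, HPX, ORM1 and ORM2. The largest difference was that of CP over ORM1, whose log2 ratio of CPM was lower by 0.30 with HK1 (mean -0.36 in controls and -0.66 with HK1). In that pair the groups did not overlap, and its raw p was 0.1, the smallest that 3 against 3 allows (two-sided exact permutation test). Adjusted over the 6 pairs by Benjamini-Hochberg, p ran from 0.45 to 0.7, and no pair could have passed 0.05 in this design. The orosomucoid pair held 54.3% ± 2.20 of the counts of all 10 genes in controls and 58.3% ± 1.12 with HK1 (exact permutation p = 0.1, again the smallest possible). All 10 genes together took 0.0154% of library counts in controls and 0.0114% with HK1.

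The remaining genes were near or below the limit of detection. CRP, C-reactive protein, the opsonin used as the clinical marker of inflammation, had 0 counts in all 6 libraries, and 3 counts, the limit that a count of 0 allows, equal 0.142 to 0.182 CPM depending on the library (counting error only). Its pseudogene CRPP1 also had 0 in all, and its relative APCS, serum amyloid P, had 1 count in each of HK1-overexpressing libraries 1 and 3. No difference in CRP was detectable at this depth.

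SAA1 had 4, 7 and 4 counts in controls and 4, 3 and 2 with HK1. SAA2 had 10, 5 and 8 counts in controls and 10, 13 and 8 with HK1. SAA4 had 2, 0 and 5 counts in controls and 6, 6 and 6 with HK1. In SAA1 and SAA2 the groups overlapped, and in SAA4 the HK1-overexpressing libraries were higher in counts but not in CPM, where control 3 (0.303) lay above HK1-overexpressing library 1 (0.302). All 3 genes failed the filter on low counts.

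The ratios of their pooled counts, HK1-overexpressing over control and each taken relative to the pooled library totals, were 0.533 for SAA1, 1.20 for SAA2 and 2.28 for SAA4. Exact 95% intervals, which cover counting error only, ran from 0.206 to 1.30, from 0.676 to 2.15 and from 0.910 to 6.47, all spanning equality. SAA2-SAA4 had at most 1 count in any library. SAA1, SAA2 and SAA2-SAA4 summed had 15, 13 and 12 counts in controls and 14, 17 and 10 with HK1. That sum was not called (log2 -0.17, edgeR adjusted p = 0.8009), and its sign reversed without HK1 replicate 3.

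LBP encodes the protein that carries bacterial lipopolysaccharide to CD14. It had 6, 2 and 6 counts in controls and 1, 1 and 3 with HK1. The groups overlapped, since control 2 (0.117 CPM) lay below HK1-overexpressing library 3 (0.142 CPM). The ratio of pooled counts on the same scale, with 14 against 5 counts, was 0.317 (exact 95% interval 0.0894 to 0.932, counting error only). With no filter, edgeR gave LBP an adjusted p of 0.3635, and SAA1, SAA2 and SAA4 0.6861, 0.8444 and 0.565.

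**Figure D2:**
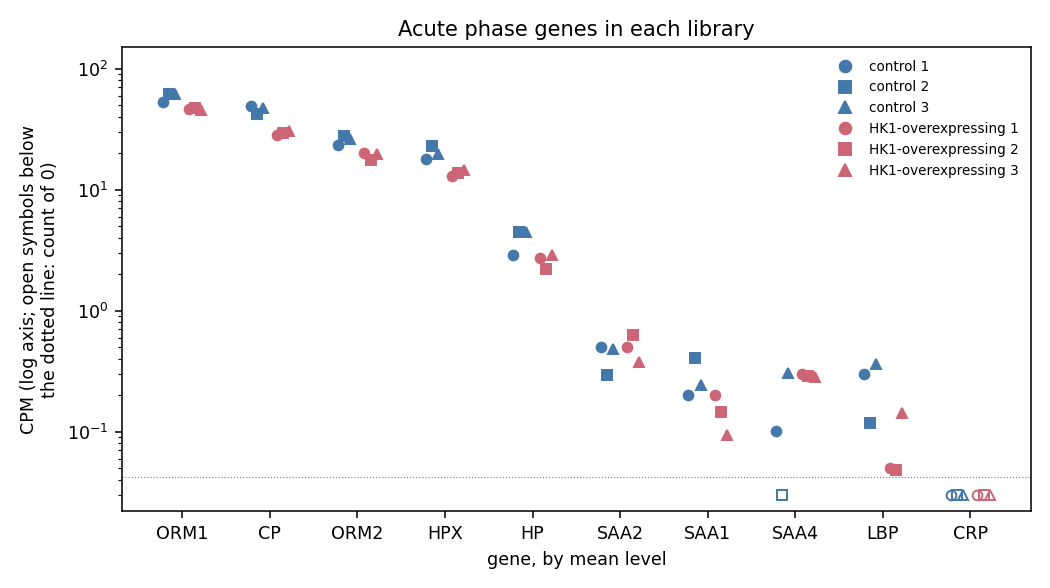
CPM of each of the 10 genes in each library on a log axis, ordered by mean CPM without correction for length, with counts of 0 drawn as open symbols under the dotted line. CRP is at 0 in all 6 libraries, SAA1, SAA2, SAA4 and LBP lie below 1 CPM, and HP lies between 2.21 and 4.49 CPM.

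Per kilobase of exon, the levels in controls fell in the order ORM1 (68.5 ± 6.08 CPM per kilobase), ORM2 (33.9 ± 3.05), CP (6.52 ± 0.524), HPX (5.54 ± 0.697) and HP (0.717 ± 0.169). SAA1, SAA4, SAA2 and LBP lay between 0.143 and 0.268 CPM per kilobase, and CRP at 0. CP and HPX overlapped in their control libraries (5.92 to 6.91 against 4.93 to 6.30), and so did SAA1, SAA4, SAA2 and LBP. With HK1 the order of the first 5 was the same, at 53.8, 25.2, 4.16, 3.8 and 0.475 CPM per kilobase. Averaged over the 6 libraries, ORM1 ranked above 95.8% of tested genes per kilobase, ORM2 above 90.3%, CP above 61.1%, HPX above 58.3% and HP above 22.0%. The length used was that of all annotated exons of a gene joined, 7072 bases for CP, 3631 for HPX and 5492 for HP. The single transcripts used for the windows above were shorter, at 4676, 1652 and 1443 bases. The order of CP and HPX and these ranks depend on that choice, and no other length was tried.

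Over the 6 libraries, the log2 CPM of 9445 genes with a mean of at least 10 CPM was set beside that of each called gene. Among the most alike were LYAR (Pearson r = 0.9986) for ORM1, PA2G4P4 (0.9954) and THOC1 (0.995) for ORM2, EWSR1 (0.9996) and NSD2 (0.9978) for CP, and MRTO4 (0.9993) and ARF5 (0.9988) for HPX. Between 5.72% and 8.08% of genes exceeded an r of 0.9 with the gene in question. The 6 points share the 2 groups, so these values describe likeness and nothing further.

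Other positive acute phase genes were mostly lower as well. Of 24 such genes 12 were tested, of which 8 were called lower and 1 higher, with a median log2 change of -0.29. Over all tested genes 4.15% were called lower and 3.87% higher. Complement C3, the central component of the complement cascade, fell from 669.3 ± 29.1 to 441.0 ± 5.19 CPM (log2 -0.60). SERPING1, the C1 inhibitor, fell from 75.7 ± 5.31 to 51.8 ± 1.53 CPM (-0.55), and FGL1, a fibrinogen-like hepatokine, from 55.6 ± 0.482 to 39.3 ± 0.769 CPM (-0.50). The calls of C3, SERPING1 and FGL1 held in all 15 alternatives.

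Most tested negative acute phase genes were also called lower. Of 18 such genes 15 were tested, and 10 were called lower and 0 higher, against 4.15% and 3.87% of all tested genes. At an unadjusted p under 0.05 and by DESeq2 or limma-voom 0 were higher too. With 3.87% of all tested genes called higher, 0 of 15 says little. The share over all genes at the unadjusted threshold is not given here. The median log2 change was -0.69. SERPINA6 (corticosteroid-binding globulin), named outside the rule after its values were seen, had 19, 2 and 105 counts in controls and 150, 144 and 98 with HK1. It was not called (log2 1.41, edgeR adjusted p = 0.5147), but without control replicate 3, its highest control, it was called higher (3.48, 0.01413). AHSG (fetuin-A, an inhibitor of calcification) fell from 227.1 ± 7.33 to 90.7 ± 2.14 CPM (log2 -1.32), and GC (vitamin D binding protein) from 68.0 ± 1.28 to 33.1 ± 2.17 CPM (-1.04). APOA2, an apolipoprotein of high-density lipoprotein, fell from 138.5 ± 16.3 to 69.1 ± 0.595 CPM (it fell by 50.1%), and ALB (albumin) from 4925 ± 107.6 to 3415 ± 68.4 CPM (-0.53). AHSG, GC, APOA2 and ALB had edgeR adjusted p-values no higher than 3.300e-06.

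Hepatocyte markers, checked for the labelled cell type, were present and also lower. All 8 were tested, and 6 were called lower and 0 higher, against 4.15% and 3.87% of all tested genes. None was higher unadjusted or by DESeq2 or limma-voom either, but at the share over all genes 0 of 8 says little. Their summed level was 13290 to 14190 CPM in controls and 10260 to 10610 CPM with HK1. ALB, AFP (alpha-fetoprotein, -0.57), TF (transferrin, -0.54) and APOA1 (-0.70) were the 4 of smallest p. ALB, TTR, TF and APOA1 were already counted among the negative acute phase genes, and FGB and SERPINA1 among the other positive ones. Only AFP and APOB lay outside those lists, and APOB was not called (log2 -0.16, edgeR adjusted p = 0.5891). The marker list is therefore not separate evidence of a broader fall. The part of this fall in the lower acute phase genes was not tested. Markers of leukocytes, endothelium and fibroblasts summed to 81.4 to 93.3 CPM in controls and 70.9 to 74.6 CPM with HK1. Only 4 of these 12 were tested, and CD163 and CDH5 were at 0 in all libraries. LYZ (lysozyme) made up most of these sums and fell from 65.8 ± 5.07 to 45.6 ± 2.65 CPM (log2 -0.53). COL1A2 (a collagen I chain) rose from 11.9 ± 0.664 to 17.8 ± 1.43 CPM (0.58). The sums therefore follow LYZ and do not measure a level of other cell types.

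**Figure D3:**
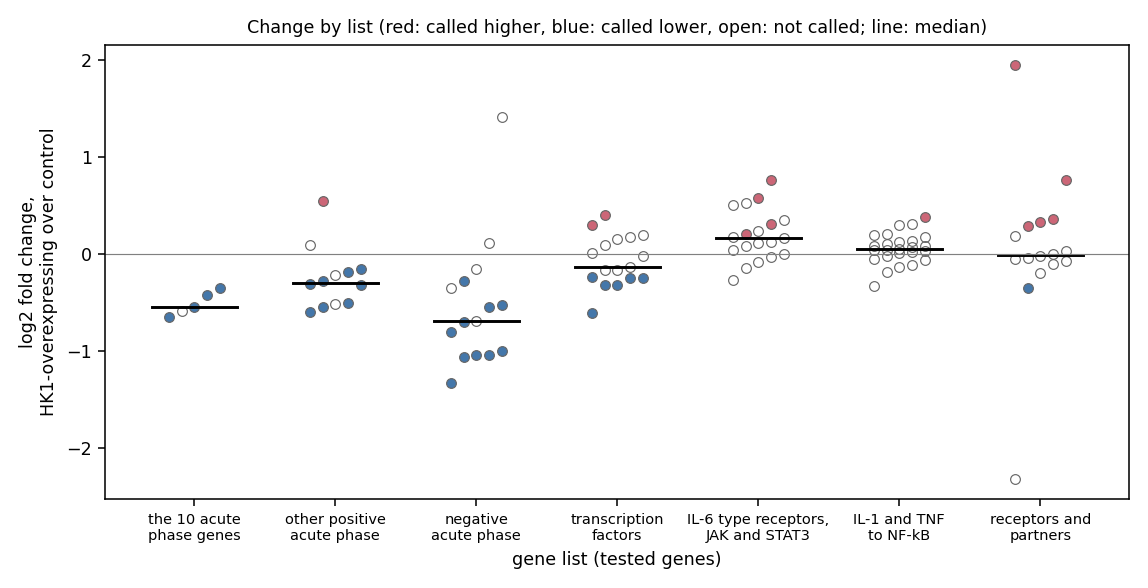
Log2 fold change of every tested gene in 7 lists, HK1-overexpressing over control (filled red: called higher; filled blue: called lower; open: not called; line: the list's median). The 3 acute phase lists lie mostly below 0, whereas the interleukin 6 and interleukin 1 lists have medians of 0.16 and 0.06.

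Of 21 genes of interleukin 6 reception and JAK-STAT3 signalling 19 were tested and 4 were called higher, where 3.87% of all tested genes were. The median log2 change was 0.16. By edgeR, DESeq2 or limma-voom 0 were called lower (1 was lower at an unadjusted p under 0.05). Over all tested genes edgeR called 4.15% lower, so 0 of 19 says little about this list. SOCS2, a feedback inhibitor of cytokine receptors, rose from 6.09 ± 0.605 to 10.3 ± 0.350 CPM (log2 0.76), and the AP-1 subunit gene JUNB from 22.4 ± 1.79 to 33.4 ± 2.42 CPM (0.58). JAK1, the kinase of gp130 receptors, rose by 0.31 and OSMR, the oncostatin M receptor, by 0.21 on the log2 scale. JAK1 lost its call without control replicate 3 or HK1 replicate 3, and OSMR without control replicate 3 or whichever HK1 replicate was left out, with the replicate block and with no robust dispersion. STAT3, named here outside the rule, measured 133.6 ± 1.57 and 137.8 ± 2.47 CPM and was not called (log2 0.04, edgeR adjusted p = 0.6478). The list's count dropped to 2 without control replicate 3 or HK1 replicate 3.

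Of 28 genes of interleukin 1, tumour necrosis factor and NF-kB signalling, 25 were tested, 1 was called higher and 0 lower by edgeR. Over all tested genes 3.87% were called higher and 4.15% lower, so these counts were near the shares over all genes. By DESeq2 or limma-voom 0 were called lower, and 1 was lower at an unadjusted p under 0.05. The median log2 change was 0.06. TNFAIP3, the A20 inhibitor of NF-kB, rose from 35.5 ± 2.29 to 46.5 ± 0.955 CPM (log2 0.39, edgeR adjusted p = 0.002129). IL1R1, the signalling receptor of interleukin 1, measured 15 ± 1.53 and 18.5 ± 0.569 CPM and was not called (log2 0.30, edgeR adjusted p = 0.05229), though it was in 5 of 15 alternatives. Without control replicate 1, 5 were called higher and 1 lower. In that fit 1172 of 17180 tested genes were called higher and 1085 lower. The count called higher was 2 without control replicate 2 or with DESeq2's size factors. It was 4 with no filter, with a mean CPM of at least 5 or with library totals alone. Over all genes these settings called 932 of 40496, 631 of 10936 and 898 of 16734 higher, in that order.

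Among 18 transcription factors of acute phase and hepatocyte genes, 17 were tested, 2 were called higher and 6 lower. Over all tested genes 3.87% were called higher and 4.15% lower. The bile acid sensor gene NR1H4 (FXR) fell from 48.8 ± 1.69 to 32.0 ± 1.11 CPM (log2 -0.61), and the pioneer factor gene FOXA2 from 75.2 ± 2.66 to 63.4 ± 1.41 CPM (-0.25). CREB3L3, which encodes the membrane-bound factor CREBH, rose from 14.6 ± 0.267 to 19.3 ± 0.288 CPM (0.40), and CEBPB, a C/EBP factor, from 35.3 ± 2.36 to 43.5 ± 0.876 CPM (0.30). FOXA2 lost its call whichever HK1 replicate was left out, and CEBPB did so too and also without control replicate 3. The count called lower was 1 without HK1 replicate 1, 2 or 3, 3 without control replicate 3, and 2 with library totals alone, and that called higher was 1 without control replicate 3 or any single HK1 replicate. Of 9 glucocorticoid targets, all tested, TAT (tyrosine aminotransferase) fell (6.04 ± 0.534 to 3.23 ± 0.258 CPM, log2 -0.90), and SGK1 (a serum- and glucocorticoid-regulated kinase) rose (90.9 ± 2.78 to 114.5 ± 0.935 CPM, 0.33). By edgeR 1 of these 9 was called lower and 1 higher, beside the 4.15% and 3.87% over all tested genes. With control replicate 2 left out, 3 of these targets were called lower. In that fit 983 of 17170 tested genes were called lower, against 694 of 16734 with all libraries.

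Receptors and enzymes that handle the ligands of these proteins gave 5 called higher and 1 lower of 16 tested, among 18. The shares over all tested genes were 3.87% and 4.15%. HMOX1, haem oxygenase 1, which degrades haem, rose from 87.3 ± 3.04 to 106.3 ± 3.44 CPM (log2 0.28), and SLC40A1, the iron exporter ferroportin, from 252.2 ± 28.3 to 324.9 ± 5.52 CPM (0.37). The lipopolysaccharide receptor gene TLR4 rose from 4.42 ± 0.414 to 7.5 ± 0.420 CPM (0.76). Its co-receptor gene LY96 had 5, 5 and 1 counts in controls and 18, 13 and 19 with HK1 (log2 1.94, edgeR adjusted p = 0.01371), and lost its call without control replicate 3 or HK1 replicate 1 or 3. ATP7B, the copper transporter that loads ceruloplasmin, was named outside the rule after its value was seen. It fell from 30.7 ± 3.81 to 24.1 ± 0.653 CPM (log2 -0.35, edgeR adjusted p = 0.02140) and lost its call without control replicate 3 and whichever HK1 replicate was left out. The list's count called higher was 3 without control replicate 3, HK1 replicate 1 or HK1 replicate 3, and that called lower was 0 whichever HK1 replicate was left out and 2 with no filter.

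**Figure D4:**
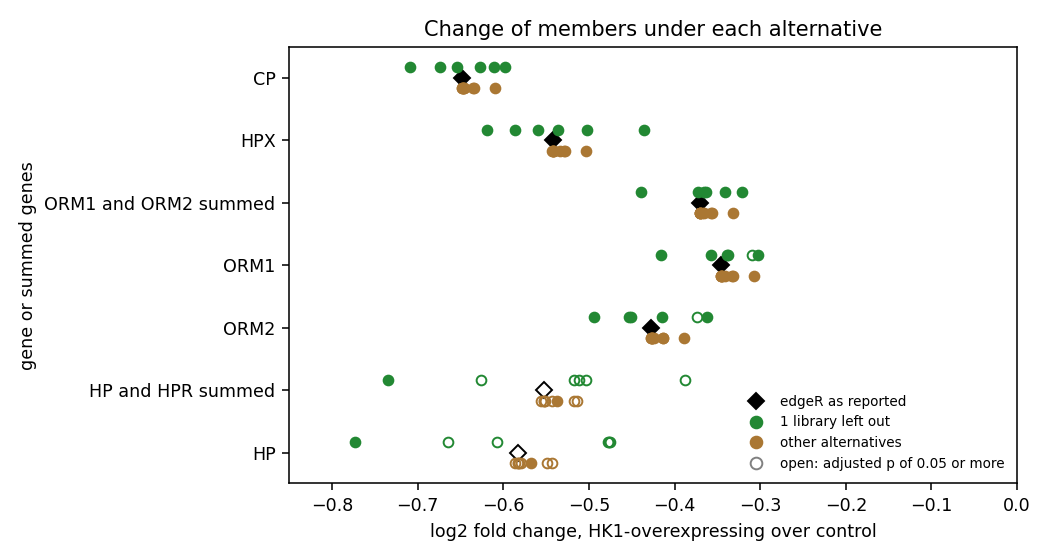
Log2 fold change of each tested gene, and of the ORM1 with ORM2 and HP with HPR sums, under every alternative (diamond: edgeR as reported; circles: alternatives; open: adjusted p of 0.05 or more). All values lie below 0, and CP, HPX and the ORM sum are filled under every setting.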

How the data were processed

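The authors deposited whole-number counts for each gene name, from read pairs assigned to GENCODE release 47 exons by featureCounts 1.5.3, per the file headers. Trim Galore, Subread and hg38 are named in the submitters' processing notes. Libraries came from a stranded mRNA kit, per the labels' protocols, but the recorded command sets no strand option and none for fragments that map to several places or genes, so antisense partners cannot be told apart and fragments in shared sequence may be missing.

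Counts were fitted over the whole table with edgeR 4.0.16 in R 4.3.3 (TMM, filterByExpr with minimum count 10 and total 15, robust quasi-likelihood test, group only, Benjamini-Hochberg at 0.05). Log2 fold changes set HK1-overexpressing libraries over control, and approximate SEs are the unshrunken coefficient over the square root of F. The fold test used glmTreat. Sums of close copies were tested in a fit with those rows replaced. The fit was tested on simulated data.

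The acute phase genes and all lists were chosen with earlier results of these data known. Named were those 10 genes, HK1, genes of shared sequence with counts, and of each other list up to 4 called genes of smallest p, plus the best uncalled gene where fewer than 2 were called, and for each called acute phase gene the 2 genes most alike over the libraries. Some genes named by this rule are not reported here.

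The alternatives were DESeq2 1.42.0, limma-voom (limma 3.58.1), DESeq2's size factors, scaling by library totals, a filter at a mean CPM of 5, no filter, no robust dispersion, a replicate block, HK1 removed, other thresholds and leaving out each replicate. For genes of the other lists they were chosen after seeing the data.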

Additional observations from a re-analysis of the deposited data

How the results depend on the processing

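Between 3 and 5 of the acute phase genes were called lower and 0 higher under all 17 alternatives, each within 1.5 times the reported 4. HP and HPR summed were called with no filter (log2 -0.54, edgeR adjusted p = 0.02532), and leaving out 1 library moved their log2 change between -0.73 and -0.39. SAA1 and SAA2 summed ran from -0.35 to 0.0322 with 1 library left out, the last without HK1 replicate 3 (edgeR adjusted p = 0.9785). Against a smaller fold tried in place of 1.5, 1 gene (CP) passed (glmTreat adjusted p = 0.007603). The size of that fold is not given here, so how large a change CP passed cannot be read from this value. The share of all tested genes that passed it is not given here, so how common passing was cannot be judged. The causes were not tested. The labels do not say whether same-numbered libraries belong together. Deviations of same-numbered libraries from their group means correlated at -0.0304 to 0.0579, and those of differently numbered ones at -0.0515 to 0.0496. No pairing was visible, but this does not show whether same-numbered libraries were handled together. With the replicate block 1074 genes were called in place of 1342, and 4 of the 10 acute phase genes were lower as before. Leaving out 1 library gave between 536 and 2257 calls over all genes. Depth limits CRP, SAA1, SAA2, SAA4 and LBP, of which at most 13 counts fell in any library. SAA1 and SAA2 summed had no adjusted p by DESeq2 and could not be tested with a mean CPM of at least 5.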
